A study of Homo sapiens with 8 samples.

Results

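The genes described here encode the proteins of the mitochondrial ribosome that carry the symbols MRPL (large subunit) and MRPS (small subunit). They were taken from a table of transcript levels as every gene whose symbol was MRPL or MRPS followed by digits and, in some cases, A, B or C. The rule uses symbols and no measured value, but it was set with earlier results of these data known. The rule found 78 of the 34415 genes in the table, 49 of the large subunit and 29 of the small. RNA came from TeloHAEC, an immortalised line made from human aortic endothelial cells, with a wild-type (WT) genotype. Palmitic acid, a saturated fatty acid, was in the medium of both groups to mimic a setting prone to atherosclerosis, and the series addressed the effect of estradiol there. The control group had 4 libraries with palmitic acid and no named hormone, and the estradiol group had 4 libraries with palmitic acid and estradiol. Groups were read from the sample titles, since the treatment label of the estradiol samples names only palmitic acid. The sources used here give no doses or exposure times. Nor do the labels state that replicates were separate cultures, so a p-value speaks only of the spread among these 8 libraries, and that spread may be technical. All libraries came from a single cell line, with no second line or donor.

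Mitochondria keep a small genome of their own that encodes core subunits of the respiratory chain, and a dedicated ribosome translates those messages inside the organelle. Its ribosomal RNAs are transcribed from mitochondrial DNA, whereas all of its proteins are encoded in the nucleus, made in the cytosol and imported. The small subunit binds and decodes the message, and the large subunit joins the amino acids and passes the chain to the inner membrane. Symbols do not always match positions in the particle: structures place MRPS18A and MRPS30 in the large subunit, and MRPS36, listed in RefSeq as KGD4, is now described as a component of the 2-oxoglutarate dehydrogenase complex.

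Levels were given as FPKM, fragments per kilobase of transcript scaled to the library total, so that levels of different genes can be compared per length. Between 33421051 and 39899258 reads per library were recovered from the steps of the FPKM values. A tested member held from 46 to 3907 reads in a library, with a median of 1109.5. Of 12 endothelial markers, 10 averaged at least 1 FPKM, whereas VWF (0.296 FPKM) and EMCN (0.280 FPKM) did not. None of 5 macrophage, 4 epithelial and 4 fibroblast markers reached 1 FPKM, and of 4 smooth muscle markers only SMTN did. Control 3 and estradiol 4 stood apart from the other 6 libraries across most genes, and they came from different groups. They were singled out from the measured values, so their shift is given only as a description, and results that rest on them are given with and without them.

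The transcripts of the mitochondrial ribosome were mostly present at moderate levels, within a 36.0-fold range between the highest and the lowest tested member. Of the 78 genes, 77 averaged at least 1 FPKM over the 8 libraries and entered the tests, and 57 of those lay between 10 and 50 FPKM. The median member was at 16.9 FPKM, beside 8.84 FPKM for all 10720 genes tested. Large-subunit members had a median of 20.9 FPKM with a range from 2.03 to 73.1, and small-subunit members a median of 15.5 FPKM with a range from 2.35 to 46.2. Only 4 members averaged above 50 FPKM, all of the large subunit, and 16 of the 77 tested averaged below 10 FPKM. In a bulk sample, fewer cells expressing a gene and less of its RNA per expressing cell cannot be told apart.

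**Figure D1:**
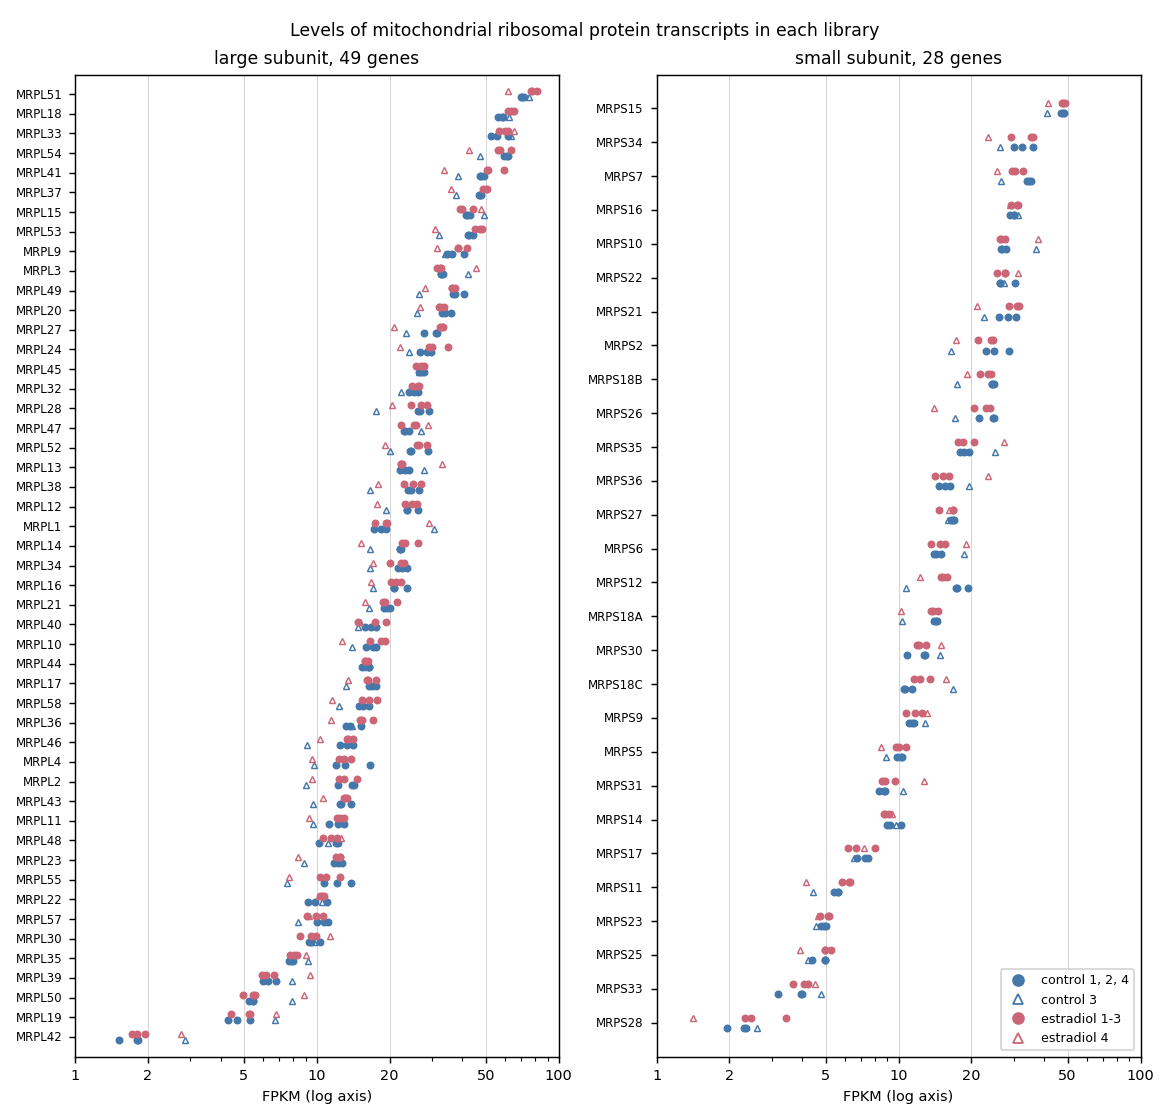
Mean-ordered FPKM of each tested gene on a log axis, 1 point per library, for the large (left) and small (right) subunit; blue marks control and red estradiol, and open triangles mark control 3 and estradiol 4. Genes span from 2.03 FPKM (MRPL42) to 73.1 FPKM (MRPL51), and the triangles lie to the left of the filled points for most genes and to their right for MRPL1 and MRPL50; MRPS24, under 1 FPKM, is not drawn.

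MRPL51, a protein found in mitochondrial and not in bacterial ribosomes, had the highest level. It measured 71.5, 69.8, 75.4 and 70.7 FPKM in controls 1 to 4 and 81.6, 77.2, 77.0 and 61.7 FPKM in estradiol libraries 1 to 4. Estradiol libraries 1 to 3 were above every control, while estradiol 4 was below all of them. MRPL18, the counterpart of the bacterial protein that binds 5S ribosomal RNA, followed with 56.3, 59.1, 62.3 and 58.5 FPKM in the controls and 61.6, 65.4, 63.4 and 63.3 FPKM with estradiol. Only control 3 fell among its estradiol libraries. MRPL33 measured 52.5, 55.6, 63.7 and 61.7 FPKM in the controls and 61.6, 56.6, 59.8 and 65.5 FPKM with estradiol, and the groups overlapped across most of their ranges. MRPL54 averaged 56.1 FPKM and MRPL41, another protein without a bacterial counterpart, 47.1 FPKM. Both were lowest in estradiol 4 (42.5 and 33.5 FPKM) and next lowest in control 3 (47.3 and 38.5 FPKM).

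At the low end of the large subunit stood MRPL50 (6.10 FPKM), MRPL19 (5.34 FPKM) and MRPL42 (2.03 FPKM). MRPL42 drew between 900 and 1664 reads per library, near the median of the members, but the FPKM values were computed with a length of 15560 bases for it, the longest among the members. Its level per kilobase was thus the lowest of those tested, while its read count was not. Across the 77 tested members level and length had a Spearman correlation of -0.61, with -0.70 over the 49 of the large subunit and -0.39 over the 28 of the small, beside -0.25 over all genes tested. FPKM divides reads by this same length, so a negative correlation is partly built in. These are descriptions across genes, which share the library totals and are not independent.

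Among small-subunit members the highest was MRPS15, the counterpart of a bacterial protein that binds early in assembly, with 48.0, 46.8, 41.2 and 48.1 FPKM in the controls and 47.7, 47.6, 48.5 and 41.5 FPKM with estradiol. Its 2 low libraries were again control 3 and estradiol 4, and the remaining 6 lay within 2 FPKM of each other. MRPS34, in which mutations cause a combined deficiency of the respiratory chain, averaged 31.1 FPKM, MRPS16 30.0 FPKM and MRPS10 29.5 FPKM. MRPS7, a protein of the small-subunit head, was close to them at 32.6 ± 4.01 FPKM in the controls and 29.5 ± 2.91 FPKM with estradiol (SD, n = 4). The least abundant of those tested were MRPS33 (4.05 FPKM) and MRPS28 (2.35 FPKM), the latter with only 46 to 96 reads per library. MRPS28 had 2.31, 1.95, 2.61 and 2.33 FPKM in the controls and 2.31, 3.43, 2.46 and 1.42 FPKM with estradiol, so the estradiol libraries held both its highest and its lowest value.

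MRPS24 stood alone below 1 FPKM. It was listed at 0.0381, 0, 0.0400 and 0.0751 FPKM in the controls and at 0, 0, 0.0381 and 0 FPKM with estradiol, which is 0 to 2 reads per library, and an exact two-sided permutation test over the 70 relabellings of the libraries gave p = 0.143. In RefSeq (GRCh38.p14) the whole span of MRPS24 lies inside a readthrough gene, URGCP-MRPS24, which was listed at 0 in all 8 libraries. The span of MRPS28 likewise lies inside a readthrough gene, TPD52-MRPS28, and that of MRPS16 inside the antisense gene DNAJC9-AS1, which averaged 0.432 FPKM. How reads over several genes were counted, and whether strand was used, is not stated, so low expression of MRPS24 and reads set aside as shared cannot be told apart. In all, 28 members share part of their span with another protein-coding or long noncoding gene, 3 of them wholly, and their levels carry that uncertainty.

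Stability across libraries differed between members by about an order of magnitude. The coefficient of variation over the 8 libraries had a median of 13.0% for the members, beside 14.2% for all genes tested. MRPL44, an RNase III-like protein, was the steadiest at 2.39%, with 15.3, 16.4, 15.9 and 16.5 FPKM in the controls and 15.8, 15.8, 16.2 and 16.1 FPKM with estradiol. MRPL45, which anchors the ribosome to the inner membrane, was nearly as steady at 2.58%, and MRPS16 (3.39%) and MRPS23 (4.59%) were the steadiest of the small subunit. The most variable was MRPL1, the protein of the flexible L1 stalk, at 24.7%. It read 19.2, 17.2, 30.4 and 18.5 FPKM in the controls and 19.3, 17.4, 19.4 and 28.97 FPKM with estradiol, with control 3 and estradiol 4 far above the rest. MRPL42 (24.2%), MRPL50 (23.6%) and MRPS28 (24.2%) followed. In the small subunit MRPS18C and MRPS36 came next after MRPS28, at 18.2% each.

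Promoter sequence was examined because nuclear genes of the mitochondrial ribosome have long been tied to the factors GABPA (NRF2), YY1 and NRF1, and because motif letters are a property that the choice of genes did not use. RefSeq promoter windows of 300 bases (GRCh38.p14, 250 before to 50 after the first listed start) were matched by symbol for 69 of the 78 genes, and not for MRPL10, MRPL13, MRPL15, MRPL2, MRPL21, MRPL23, MRPL35, MRPS28 and MRPS36. Both strands were searched. The GABPA core CCGGAA occurred in 39 of 69 windows (56.5%), in 59.5% of the large-subunit and 51.9% of the small-subunit windows, beside 32.3% of the 8746 windows of tested genes and 17.6% of all 27305 windows. Its longer form CCGGAAGT, which contains CCGGAA, occurred in 11 windows (15.9%), 9 of the large and 2 of the small subunit, beside 9.94% of tested genes and 4.44% of all windows. The YY1 core AAGATGGCG occurred in 13 windows (18.8%), 8 large and 5 small, beside 4.505% of tested genes and 1.85% of all. Both CCGGAA and AAGATGGCG were present in 7 windows (10.1%; 1.62% of tested genes), and at least 1 of them in 45 (65.2%; 35.2% of tested genes). The NRF1 core in its strict form was found in 1 window (1.45%, beside 2.42% of tested genes), and with 2 free bases in 9 (13.0%, beside 16.9%). No window held the palindromic estrogen response element, which 0.0114% of tested genes and 0.0659% of all windows held. The median GC content of the windows was 60.3% for members and 65.3% for tested genes. A match describes letters and is not a binding site, and a missing match says only that these letters are not in the window.

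The YY1 matches mostly shared a place and a strand, as they did in tested genes at large. Of 14 matches, 12 read along the gene's own strand (85.7%, beside 77.9% of 403 matches in tested genes) and 9 began 0 to 24 bases after the start (64.3%, beside 56.6%). The sequences below, chosen among those 9, show the match with its flanking bases. Their genes averaged from 0.0239 FPKM (MRPS24) to 29.5 FPKM (MRPS10), so the most abundant members are not among them. Matches elsewhere in the window or against the gene's strand are not shown. The capitals mark AAGATGGCG, each sequence is written along the gene's strand, and all come from RefSeq (GRCh38.p14).
MRPL38: ggccggagggAAGATGGCGgcgccctggt
MRPL42: ggattgaaacAAGATGGCGggttcgtggt
MRPL46: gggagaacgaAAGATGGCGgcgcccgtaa
MRPL50: gatctcatcgAAGATGGCGgcgcgatctg
MRPS10: cgggaccggcAAGATGGCGgcgcggacag
MRPS18A: taggtttttgAAGATGGCGgccctcaagg
MRPS18B: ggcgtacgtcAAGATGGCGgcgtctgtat
MRPS24: cgcttggcccAAGATGGCGgcctccgtgt
These lie at chr17:75904860-75904888 (minus strand) for MRPL38, chr12:93467512-93467540 (plus) for MRPL42, chr15:88467362-88467390 (minus) for MRPL46, chr9:101398577-101398605 (minus) for MRPL50, chr6:42217834-42217862 (minus) for MRPS10, chr6:43687764-43687792 (minus) for MRPS18A, chr6:30617853-30617881 (plus) for MRPS18B and chr7:43869480-43869508 (minus) for MRPS24. The match began between 6 bases (MRPL38) and 23 bases (MRPL50 and MRPS18B) after the listed start, within the first transcribed bases.

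GABPA matches were more numerous and lay mostly before the start. There were 66 matches of CCGGAA in the 39 windows, 37 of them from 50 bases before to 49 after the start (56.1%, beside 49.4% in tested genes) and 18 in the last 25 bases before it (27.3%, beside 18.9%). They fell on both strands, 31 along the gene and 35 against it, as the 1950 and 2031 in tested genes did. The longer form is shown for some of the 11 members whose window held it, and these are not simply the most abundant. MRPS22 also held a match at -80 bases from the start, which is not shown. Capitals mark CCGGAAGT or its reverse complement ACTTCCGG, again along the gene's strand from RefSeq (GRCh38.p14).
MRPL3: gtaaaacgcaCCGGAAGTgggtccggcg
MRPL47: gcttgagacgCCGGAAGTgacgctatcg
MRPL51: gcgctccaaaACTTCCGGcaggcggacc
MRPL53: cagccggcggCCGGAAGTctatcccgca
MRPS22: cctcccaaccACTTCCGGcgcaagtggc
MRPS34: tcttccggtgACTTCCGGccggaccgct
Their positions are chr3:131502986-131503013 (minus) for MRPL3, chr3:179604660-179604687 (minus) for MRPL47, chr12:6493365-6493392 (minus) for MRPL51, chr2:74472735-74472762 (minus) for MRPL53, chr3:139343988-139344015 (plus) for MRPS22 and chr16:1773137-1773164 (minus) for MRPS34. Tested members whose window held CCGGAA had a median level of 22.2 FPKM (38 genes), and those without it 15.0 FPKM (30 genes). For AAGATGGCG the medians were 13.8 FPKM with it (12 genes) and 20.7 FPKM without (56 genes). The ranges overlapped widely, from 4.05 to 73.1 FPKM with CCGGAA and from 2.03 to 61.2 FPKM without it.

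**Figure D2:**
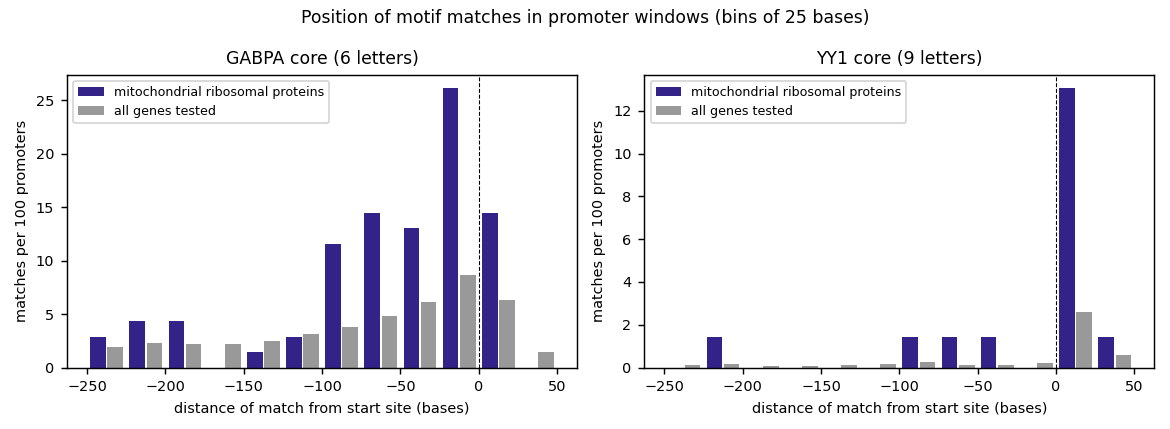
Matches per 100 promoter windows in bins of 25 bases by distance from the listed start (dashed line), for the 69 windows of mitochondrial ribosomal protein genes and the 8746 windows of tested genes; left the 6-letter GABPA core, right the 9-letter YY1 core. In the members 18 GABPA matches (26.1 per 100 windows) lie in the 25 bases before the start, and 9 YY1 matches (13.0 per 100) in the 25 bases from the start on.

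Estradiol against control was the comparison of the study. None of the 77 tested members had a Benjamini-Hochberg adjusted p under 0.05 in limma, and none of the 10720 genes did (0%). At an unadjusted p under 0.05 there were 0 members and 26 genes (0.243%). With limma-voom on the recovered reads 0 members and 0 genes were called, with 0 members and 22 genes (0.205%) at an unadjusted p under 0.05. The mean FPKM of the controls was within 0.9 and 1.1 times that of the estradiol libraries for 75 of the 77 members. The median log2 fold change of FPKM + 1 was 0.02 for all members, 0.03 for the large subunit and 0.01 for the small, beside -0.00 for all genes. Of the 77 values 51 were positive (36 of 49 large, 15 of 28 small) and 26 negative, while 49.5% of all genes were positive. That count changed with the libraries used. With single libraries left out it ran from 33 of 77 (without control 3) to 54 of 77 (without control 2), and was 40 of 77 without estradiol 2. Without both control 3 and estradiol 4 it was 45 of 77, beside 5159 of all 10720 genes. Each gene's 95% interval, not adjusted for the number of genes, lay within a 1.5-fold change either way for all 77 members, as it did for 98.4% of all genes.

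**Figure D3:**
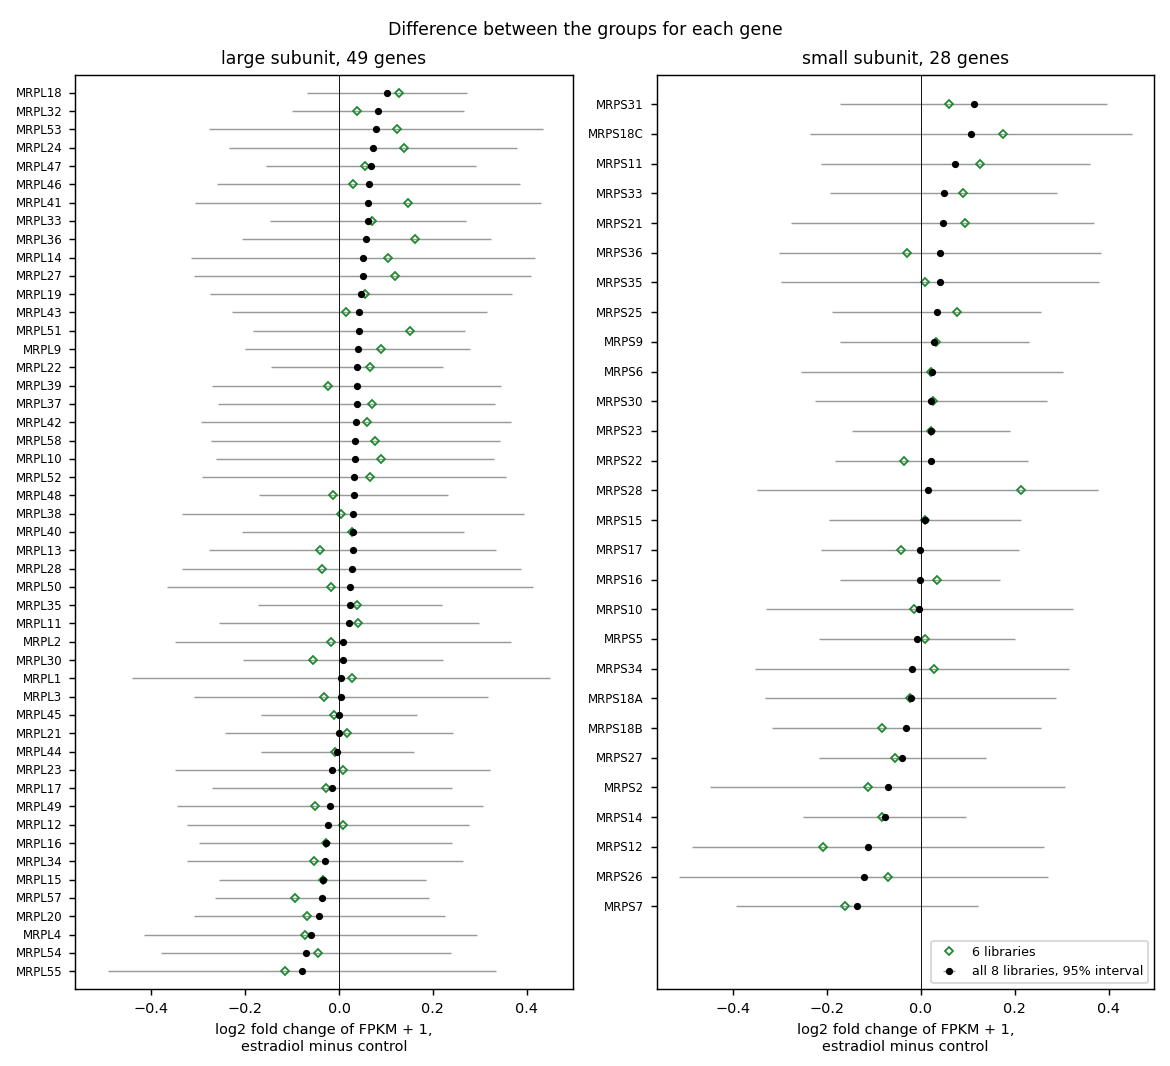
Log2 fold change of FPKM + 1, estradiol minus control, for each tested gene of the large (left) and small (right) subunit, with all 8 libraries and the 95% interval from limma (black) and without control 3 and estradiol 4 (green diamonds). Every interval crosses 0, the 8-library values run from -0.14 (MRPS7) to 0.11 (MRPS31), and the 6-library values from -0.21 (MRPS12) to 0.21 (MRPS28).

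The member with the smallest p was MRPL18, whose values are given above, at a log2 fold change of 0.10 ± 0.08 (SE), unadjusted p = 0.210 and adjusted p = 1.000 in limma. MRPS31, a small-subunit protein without a bacterial counterpart, had the highest fold change at 0.11 ± 0.13, with 9.05 ± 0.924 FPKM in the controls and 9.95 ± 1.92 FPKM with estradiol (SD, n = 4). Its estradiol mean rests on estradiol 4, which measured 12.7 FPKM while the other 3 lay between 8.53 and 9.71 FPKM, and without that library the fold change was -0.00. MRPS7 had the lowest at -0.14 ± 0.12 (unadjusted p = 0.268 in limma). It measured 34.5, 34.0, 26.6 and 35.2 FPKM in the controls and 32.5, 29.5, 30.4 and 25.6 FPKM with estradiol, so control 3 was the only control below the estradiol libraries 1 to 3. MRPS12, the counterpart of the bacterial decoding-centre protein S12, read 19.3, 17.4, 10.7 and 17.2 FPKM in the controls and 15.3, 15.0, 15.9 and 12.2 FPKM with estradiol, a log2 fold change of -0.11 ± 0.17. Single libraries moved these values: without control 3 MRPS7 was at -0.23 and MRPS12 at -0.28, without estradiol 4 they were at -0.07 and -0.03, and without control 1 MRPS12 was at -0.02. MRPS26 was at -0.12 ± 0.18 and MRPL54 at -0.07 ± 0.14, and both turned positive without estradiol 4 (0.04 each). MRPL32, a protein whose maturation by a membrane protease gates assembly of the ribosome, was at 0.08 ± 0.08 with 24.4 ± 1.68 FPKM in the controls and 25.8 ± 0.687 FPKM with estradiol. MRPS14 was at -0.08 ± 0.08 (unadjusted p = 0.346 in limma), with 9.56 ± 0.560 FPKM in the controls and 9.01 ± 0.304 FPKM with estradiol.

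Members with special roles or disease links had small fold changes too. MRPL12, the stalk protein that recruits translation factors, had 23.6, 23.5, 19.4 and 26.1 FPKM in the controls and 24.7, 25.9, 23.1 and 17.7 FPKM with estradiol, a log2 fold change of -0.02 ± 0.13. MRPL58, a peptide-release factor built into the large subunit that rescues stalled ribosomes, was at 14.8 ± 1.71 and 15.3 ± 2.67 FPKM. MRPL3, MRPL44, MRPS16, MRPS22 and MRPS34, in each of which mutations cause mitochondrial disease, had log2 fold changes from -0.02 to 0.02. The widest interval among these 5 ran from -0.35 to 0.32, for MRPS34.

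The 3 MRPS18 paralogs descend from a single bacterial protein and occupy different places in the particle. MRPS18B was the most abundant, with 24.4, 24.2, 17.5 and 24.9 FPKM in the controls and 23.5, 21.8, 24.1 and 19.2 FPKM with estradiol. MRPS18A, the large-subunit form, had 14.5, 14.2, 10.3 and 14.0 FPKM and then 13.6, 13.9, 14.5 and 10.2 FPKM. MRPS18C had 11.4, 10.6, 16.8 and 10.7 FPKM in the controls and 11.6, 13.5, 12.2 and 15.7 FPKM with estradiol. In the 6 libraries other than control 3 and estradiol 4 the order was MRPS18B, MRPS18A, MRPS18C in every library. In control 3 and estradiol 4 MRPS18C was above MRPS18A, with MRPS18A at its lowest values and MRPS18C at its highest. The reference transcripts of MRPS18C held 39.1% GC, those of MRPS18A 58.2% and those of MRPS18B 51.7%. Their fold changes between the groups were -0.03 (MRPS18B), -0.02 (MRPS18A) and 0.11 (MRPS18C), all with intervals that include 0. The value of MRPS18C was 0.25 without control 3 and 0.03 without estradiol 4.

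The widest differences among libraries were those of control 3 and estradiol 4. Relative to the other 6 libraries, log2(FPKM + 1) in that pair was lower for 50 members and higher for 27, with a median shift of -0.22 over the members, -0.31 over the large subunit and -0.06 over the small, beside -0.09 over all genes tested. MRPL55 moved down furthest, at -0.56. It measured 7.54 FPKM in control 3 and 7.70 FPKM in estradiol 4, while the other 6 lay between 10.3 and 13.9 FPKM. MRPL1 moved up furthest, at 0.65. Both libraries lay below all of the other 6 for 40 of 77 members (51.9%, beside 43.9% of all genes) and above all of them for 20 (26.0%, beside 34.6%).

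These shifts moved with base composition. The Spearman correlation between a gene's shift and the GC content of its reference transcripts was -0.89 over the 77 members, -0.86 over the 49 of the large subunit, -0.90 over the 28 of the small and -0.88 over 10250 tested genes. Of 26 members with a GC content of at most 45.6%, 23 were higher in the pair, with a median shift of 0.31. Of 30 members between 45.6% and 54.4%, 26 were lower, with a median of -0.22, and all 21 members above 54.4% were lower, with a median of -0.47. The large subunit had the higher median GC content, 52.3% against 47.4%. MRPL41, the most GC-rich member at 71.9%, shifted by -0.49, and MRPL50, at 35.0%, by 0.56. MRPL44 and MRPS16, the steadiest of their subunits, had shifts of -0.00 and 0.00. Whether GC content, RNA quality or library preparation made the pair differ was not tested.

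**Figure D4:**
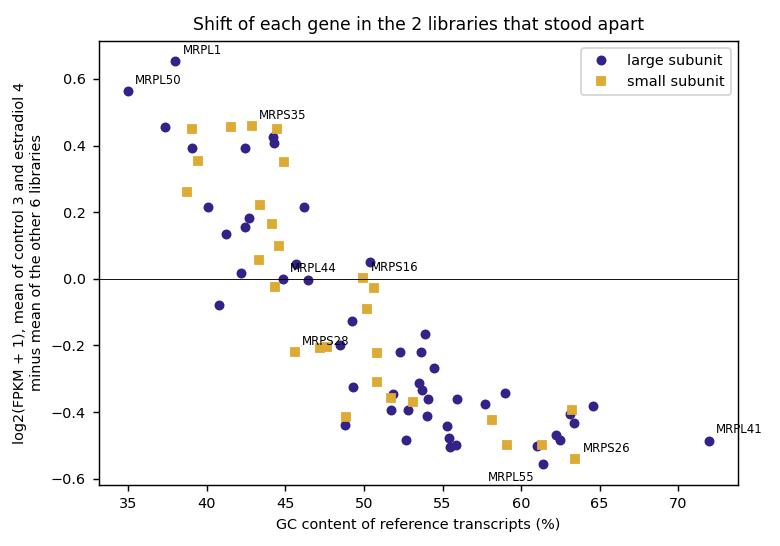
Shift of each of the 77 tested genes in control 3 and estradiol 4 (mean log2(FPKM + 1) of the pair minus the mean of the other 6 libraries) against the GC content of its reference transcripts in percent. Members with little GC lie above 0 (MRPL1 at 0.65) and all 21 above 54.4% lie below it (MRPL55 at -0.56).

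Without the pair, 3 controls and 3 estradiol libraries remained, and the spread was smaller. Adjusted p-values in limma called 0 members and 0 genes there too, with a smallest adjusted p of 0.992 among the members. Groups did not overlap for 13 of 77 members (16.9%), beside 9.52% of all genes. Estradiol was the higher group for 10 members (beside 4.6% of genes) and the lower for 3 (beside 4.93%). The 10 were MRPL14, MRPL18, MRPL27, MRPL37, MRPL41, MRPL51, MRPL53, MRPS11, MRPS18C and MRPS25, and the 3 were MRPS7, MRPS12 and MRPS18B. All 7 large-subunit members in that count were higher, whereas those of the small subunit divided 3 and 3. With all 8 libraries the groups overlapped for every one of the 77, beside 0.532% of all genes whose groups did not. At an unadjusted p under 0.05 in limma there were 8 of 77 members (10.4%), beside 3.88% of all genes. They were MRPL51 (0.15 ± 0.04, SE), MRPL18 (0.13 ± 0.05), MRPL36 (0.16 ± 0.07), MRPL53 (0.12 ± 0.05), MRPS11 (0.13 ± 0.05), MRPS18C (0.18 ± 0.06), MRPS7 (-0.16 ± 0.05) and MRPS12 (-0.21 ± 0.06). MRPL53 illustrates the size of these differences, with 44.2, 42.5 and 42.0 FPKM in controls 1, 2 and 4 and 45.0, 48.2 and 47.3 FPKM in estradiol libraries 1 to 3. With all 8 libraries and a batch term for the pair, chosen after the data were seen, 2 of 77 members had an unadjusted p under 0.05 (2.60%, beside 3.27% of all genes). None of these differences passed the adjusted threshold, and these members were named after their values were seen.

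The subunits were then compared as wholes. Large-subunit transcripts summed to 1159 ± 55.8 FPKM in the controls and 1182 ± 78.1 FPKM with estradiol (SD, n = 4), and small-subunit transcripts to 483 ± 14.0 and 480.2 ± 9.20 FPKM. Together they made up 0.475 ± 0.0084% and 0.481 ± 0.012% of the summed FPKM of the table. With all 8 libraries the differences between groups were smaller than the SD between libraries in each of these measures. Without control 3 and estradiol 4 the large-subunit sum was 1187 ± 14.6 FPKM in the controls and 1221 ± 10.3 FPKM with estradiol, the small-subunit sum 489.6 ± 7.27 and 484 ± 5.56 FPKM, and the share 0.479 ± 0.0038% and 0.486 ± 0.0057% (SD, n = 3). There the differences in the large-subunit sum and in the share were larger than the SD of either group, and that in the small-subunit sum was not. The ratio of the large to the small sum was 2.38, 2.44, 2.32 and 2.45 in the controls and 2.49, 2.57, 2.502 and 2.28 with estradiol. The 2 lowest ratios belonged to control 3 and estradiol 4. In the other 6 libraries the ratio was 2.38 to 2.45 in the controls and 2.49 to 2.57 with estradiol, 2 ranges that did not overlap, and without the 5 most abundant members these ranges were 1.80 to 1.84 and 1.86 to 1.90. Counting MRPS18A and MRPS30 with the large subunit and leaving MRPS36 out gave 2.67 to 2.74 and 2.78 to 2.87. No test was made of these ratios, since they are scores over members chosen with earlier results known. On the log2 scale, where each member weighs alike, the mean of the large subunit exceeded that of the small by 0.43 ± 0.05 in the controls and 0.45 ± 0.05 with estradiol. The difference between groups was 0.02, smaller than the SD of either group over all 8 libraries. In the 6 libraries it was also 0.02, with means of 0.45 ± 0.01 in the controls and 0.47 ± 0.01 with estradiol (SD, n = 3), larger than the SD there.

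**Figure D5:**
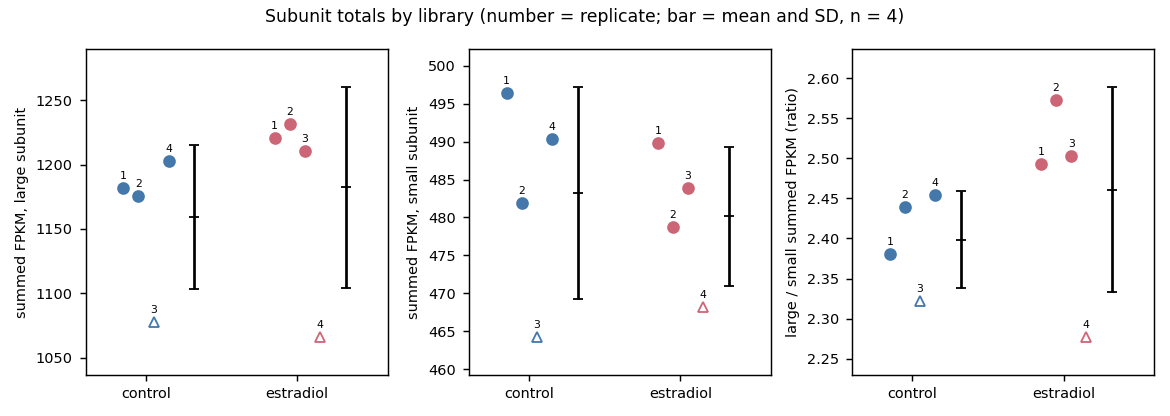
Summed FPKM of the large subunit (left), of the small subunit (middle) and their ratio (right) in each library, numbered by replicate, with the mean and SD of each group (n = 4); axes do not start at 0. Control 3 and estradiol 4 (open triangles) are lowest in each panel within their group, and the other 6 libraries have ratios of 2.38 to 2.45 in the controls and 2.49 to 2.57 with estradiol.

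No gene of the lists of proteins that work with the mitochondrial ribosome passed the adjusted threshold in limma, where 0% of all genes did. Of 6 symbols searched for ribosomal proteins that carry other names, 5 were in the table. The remaining symbol was KGD4, whose gene was listed as MRPS36 and is counted among the members. DAP3, a GTP-binding protein of the small subunit, averaged 34.2 FPKM and had a log2 fold change of 0.05 ± 0.09 (SE), and AURKAIP1 averaged 34.4 FPKM and had -0.07 ± 0.17. CHCHD1 (26.6 FPKM), GADD45GIP1 (21.9 FPKM) and PTCD3 (6.43 FPKM) completed them, with 3 positive and 2 negative fold changes in the list. Among 27 tested assembly factors the median log2 fold change was 0.01, with 17 positive and 10 negative. NGRN, which regulates the large-subunit RNA, was the most abundant at 94.0 FPKM, followed by ERAL1, a chaperone of the small-subunit RNA, at 21.4 FPKM and METTL17 at 17.5 FPKM. Among 17 translation factors the median was 0.01, with 10 positive and 7 negative, and TUFM, the mitochondrial elongation factor Tu, led at 82.0 FPKM. SLIRP, which binds mitochondrial messages, was at 50.4 FPKM and OXA1L, the insertase that receives new chains, at 42.4 FPKM.

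For 22 genes of mitochondrial transcription and RNA handling the median log2 fold change was -0.00, with 11 positive and 11 negative. HSD17B10, a subunit of mitochondrial RNase P, was at 27.3 FPKM, FASTK at 27.2 FPKM and TBRG4 at 17.8 FPKM. Of 10 transcription factors and coactivators tied to mitochondrial biogenesis 8 were tested, with 4 positive and 4 negative values. YY1 averaged 17.2 FPKM, GABPA 6.30 FPKM and NRF1 4.73 FPKM, with log2 fold changes of -0.06 ± 0.09, 0.04 ± 0.17 and -0.12 ± 0.09. PPARGC1A was listed between 0 and 0.0092 FPKM and PPARGC1B averaged 0.175 FPKM, both under the 1 FPKM limit. The mitochondrial ribosomal RNA genes had no entry under the 4 symbols searched, so the RNA of the particle was not analysed here.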

How the data were processed

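RNA-seq of 4 control and 4 estradiol libraries was analysed from 1 table of FPKM values per gene symbol, which the authors deposited. Per the submitters' processing notes, fastp 0.20.1 and HTSeq were used. Aligner, genome build, annotation and strand setting: not given in the sources used here. All 152348 values above 0 (100%) were rebuilt from whole reads within a relative tolerance of 1e-06, which gave the depth. The tests used limma 3.58.1 in R 4.3.3, two-sided, with a trended prior variance. Values were log2(FPKM + 1), a scale that understates changes of low genes. They covered the 10720 genes with a mean of at least 1 FPKM, without a block, with Benjamini-Hochberg adjustment over all of them and a threshold of 0.05. limma-voom was run on the recovered reads. The fit was checked on artificial data with known changes and independent noise. That check does not cover a shift shared by libraries, such as that of control 3 and estradiol 4. GC content was the mean over GENCODE 29 reference transcripts of the same gene name. Tables and plots were made in Python 3.11.15 (pandas 2.3.3, numpy 2.4.6, matplotlib 3.10.9, scipy 1.17.1).

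Members, lists, tests and the list of alternatives were chosen with earlier results of these data known. Members named with values were the 5 highest and 3 lowest of each subunit, up to 6 in each direction with the smallest p, the 3 most and 2 least variable of each subunit, the MRPS18 paralogs, and MRPL12, MRPL58, MRPS12, MRPL3, MRPS22, MRPS16, MRPS34 and MRPL44. Of other lists up to 3 genes with the highest levels were named. MRPL55, the members shown for a promoter sequence, those whose groups did not overlap in 6 libraries, and the transcription factors of the motifs were named after their values were seen. Alternatives were a pseudocount of 0.1, no filter, a filter at 5 FPKM, median-of-ratios and quantile normalization, no trend, array weights, a replicate block, each library left out, and control 3 and estradiol 4 left out together. A batch term for that pair, removal of each library's GC trend, limma-voom and the regrouped subunits were added after the data were seen.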

Additional observations from a re-analysis of the deposited data

Results flagged for a closer look

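Each group of 4 libraries was screened for a library whose gap to its nearest neighbour was too large a part of the group's range by Dixon's 95% critical value, a screen that by chance alone picks out about 1 in 20 groups. The screen covered members named by rule and summaries of the subunits, and not every member. Some of those members were named for their large variation, so the flagged share cannot be set against that rate. Of 78 groups screened, 16 held such a library: control 3 in 10, estradiol 4 in 5 and another library in 1.

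Among transcripts that stood high, MRPL1 reached 30.4 FPKM in control 3 while the other controls lay between 17.2 and 19.2 FPKM. MRPL3 reached 42.3 FPKM in control 3 and 45.7 FPKM in estradiol 4, MRPL50 7.89 and 8.85 FPKM, and MRPS10 36.9 and 37.7 FPKM, each above the 3 other libraries of its group. MRPS18C was at 16.8 FPKM in control 3, where the others were between 10.6 and 11.4 FPKM.

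Among those that stood low, control 3 had MRPL54 at 47.3 FPKM (others 59.4 to 61.7), MRPS7 at 26.6 FPKM (34.0 to 35.2), MRPS18B at 17.5 FPKM (24.2 to 24.9) and MRPS18A at 10.3 FPKM (14.0 to 14.5). Estradiol 4 had MRPS15 at 41.5 FPKM (others 47.6 to 48.5) and a large-subunit sum of 1066 FPKM (others 1211 to 1232). The large minus small difference in mean log2 level was 0.36 in control 3, below the 0.45 to 0.46 of the other controls. MRPS24 was at 0.0381 FPKM in estradiol 3 and listed at 0 in the other estradiol libraries, which is a matter of single reads.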

How the results depend on the processing

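The count of members past the adjusted threshold was 0 under the 20 alternative limma fits. The smallest p possible in the exact permutation test is 0.0286, and 57 genes and 0 members reached it. So few genes at that floor could not pass adjustment over all tested genes. The smallest p of a member in that test was 0.0571. The median fold changes and the difference between subunits moved by less than the spread between libraries, but their signs were not fixed: the large-subunit median ranged from -0.02 (without control 3) to 0.07 (without estradiol 4), the small-subunit median from -0.00 to 0.02, and the subunit difference from -0.01 (without control 3) to 0.04 (without estradiol 4). Among 12 members followed, direction turned for MRPS26 with array weights (0.0143). With single libraries left out the log2 fold change of MRPS26 ranged from -0.23 to 0.0397, of MRPL54 from -0.16 to 0.0435, of MRPS31 from -0.00144 to 0.175, of MRPS27 from -0.0599 to 0.0029, of MRPS12 from -0.28 to -0.02, of MRPS18C from 0.03 to 0.25, of MRPS7 from -0.23 to -0.07, of MRPL33 from 0.01 to 0.10, of MRPL47 from 0.01 to 0.13 and of MRPL32 from 0.04 to 0.12. MRPS26, MRPL54 and MRPS31 turned without estradiol 4 and MRPS27 without estradiol 2, and fewer libraries entered these fits. At an unadjusted p under 0.05 in limma, array weights gave 13 members (16.9%) and 888 genes (8.28%). The smallest adjusted p among members was 0.364 in that fit. Removing each library's GC trend gave 0 members and 198 genes (1.85%) at an unadjusted p under 0.05. A batch term for the pair gave 2 members (2.60%) and 351 genes (3.27%). The deviations of same-numbered libraries from their group means had correlations of 0.62, 0.07, -0.48 and -0.74. Control 3 and estradiol 4 stood apart across most genes and carry different numbers, so these values cannot decide whether the numbers pair the samples. With the replicate block 0 members were called and the subunit difference was 0.02. Spread between libraries limited the precision: the median SE of members was 0.13 with all 8 libraries and 0.06 without control 3 and estradiol 4.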
